A study of Mus musculus with 6 samples.

Results

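The genes described here encode the proteasome, and were taken as the protein-coding rows of the deposited table whose symbol begins with Psm, a letter from a to g and a digit. The rule found 50 of the 54532 genes in the table. Of these, 14 encode the constitutive 20S core, 17 the 19S regulatory particle, 3 the immunoproteasome subunits Psmb8, Psmb9 and Psmb10, and 2 tissue-restricted core subunits. A further 7 are assembly chaperones, 6 are activators or an inhibitor, and 1, Psmc3ip, only shares the symbol pattern: it encodes a partner protein in meiotic recombination. RNA came from whole hearts of mice 15 days old. The first group, 3 hearts, carried the genotype label Nat10-CKO (CKO below), described in the series as a knockout in cardiomyocytes, and the second, also 3 hearts, the label Nat10flox/flox (flox below). The mouse strain, the Cre driver and the deleted part of Nat10 are not given in the sources used here. The submitters state that the 3 hearts of each group are independent biological replicates. In whole-heart RNA, fewer cells of a type and less RNA per cell cannot be told apart.

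The proteasome degrades proteins that carry ubiquitin chains. Its barrel-shaped core is built of alpha and beta rings, with 3 kinds of catalytic beta subunit facing the inside, and the 19S particle on the end of the barrel binds the chains, removes them and unfolds the protein with a ring of ATPases. Together they form the 26S proteasome. Under interferon, and constitutively in immune cells, cells build Psmb9, Psmb10 and Psmb8 into new core particles in the places of Psmb6, Psmb7 and Psmb5, and that form is known for producing peptides for MHC class I molecules. The factor NRF1, encoded by Nfe2l1, is known to raise the subunit genes together when proteasome activity is short, through antioxidant response elements. In the heart, the proteasome turns over sarcomere and mitochondrial proteins.

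Promoter sequence is shown for Psmb10, the one member past the threshold of the test, for the constitutive catalytic subunits Psmb5 and Psmb6, which hold the antioxidant response element core TGACNNNGC, and for Psme1, which holds the interferon-stimulated response element core (GAAA, any 2 bases, then GAAA). The sequences are from RefSeq (GRCm38.p6), run 5′ to 3′ on the gene's strand and have motif letters in capitals. Positions count from the RefSeq start of transcription. The windows of Psmb10 and Psmb5 stop before the annotated first exon. Psmb10 is given from base −250 to −54 (chr8:105938446-105938642, minus strand), Psmb5 from −150 to −28 (chr14:54618023-54618145, minus strand), Psmb6 from −150 to −1 (chr11:70525207-70525356, plus strand) and Psme1 from −1 to 29 (chr14:55578493-55578522, plus strand).
Psmb10: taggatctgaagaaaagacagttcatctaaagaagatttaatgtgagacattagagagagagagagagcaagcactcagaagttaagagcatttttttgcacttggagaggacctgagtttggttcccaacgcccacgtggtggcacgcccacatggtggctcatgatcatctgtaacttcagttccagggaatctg
Psmb5: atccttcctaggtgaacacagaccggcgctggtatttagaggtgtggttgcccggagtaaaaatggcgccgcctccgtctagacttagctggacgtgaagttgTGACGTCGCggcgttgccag
Psmb6: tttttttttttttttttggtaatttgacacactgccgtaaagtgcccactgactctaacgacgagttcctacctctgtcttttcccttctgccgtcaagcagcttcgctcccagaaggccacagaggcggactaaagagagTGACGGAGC
Psme1: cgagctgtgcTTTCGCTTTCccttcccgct

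Psmb5 and Psmb6 carry the antioxidant core on the gene's own strand, 47 to 39 and 9 to 1 bases before the start. The letters in Psme1 are the interferon core read on the other strand. Each motif was searched on both strands in the 300 bases of RefSeq promoter available for 42 of the 50 genes (250 before the start and 50 after it). The antioxidant core was found in 6 of the 42 (14.3%), against 12.5% of all 27025 promoters and 15.1% of those of the genes tested. The 6 were Psmb5, Psmb6, Psmc6, Psmd9, Psmd12 and Psme4. The interferon core was found in 5 of the 42 (11.9%), against 3.49% of all promoters and 2.78% of those of the genes tested. These were Psmb3, Psmd4, Psmd9, Psme1 and Psmg4. Neither core was in the windows of Psmb8, Psmb9 or Psmb10. The 250 bases before the RefSeq start of Psmb8 and of Psmb9 lie wholly in exons of longer GENCODE transcripts, so other starts of these genes fall outside the window. Likewise, 139 of the 250 bases before the RefSeq start of Psme1 lie in annotated exons, and the stretch shown lies almost wholly after that start. A match describes letters only.

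The deposited values are FPKM, fragment numbers divided by gene length and by the size of the library, and counts recovered from them totalled 15048038 to 16280061 per heart. Changes are given on the log2(FPKM + 1) scale, CKO minus flox, with the standard error of a limma fit over the 12469 genes with a mean of at least 1 FPKM, and a gene was called at a Benjamini-Hochberg adjusted p under 0.05 over all of them. Nat10 had 3.69, 3.75 and 4.18 FPKM in CKO-labelled hearts and 3.87, 3.78 and 4.57 FPKM in flox hearts, and so was not lower beyond its spread (log2 change −0.06 ± 0.12, limma adjusted p = 0.768). Directions below are therefore those of hearts labelled CKO. On the first principal component, with 64.0% of the variance, CKO replicate 1 lay at −50.0, the other CKO-labelled hearts at −14.9 and −23.9, and the flox hearts at 19.1 to 38.7. CKO replicate 1 was the highest heart for 32.6% of all genes tested. Among cell type markers, 4 of 8 fibroblast genes were called higher, 4 of 8 cardiomyocyte genes lower, and 0 of 8 endothelial genes in either direction (2 lower at an unadjusted p under 0.05, 0 called by voom). Of all genes tested, 6.93% were called higher and 7.19% lower. Summed cardiomyocyte markers ran from 12643 to 14056 FPKM in CKO-labelled hearts and from 16861 to 21753 FPKM in flox hearts. Summed fibroblast markers ran from 689 to 916 FPKM in CKO-labelled hearts and from 459 to 604 FPKM in flox hearts. Col1a1 weighed most in that sum, with 342, 332 and 351 FPKM in CKO-labelled hearts and 170, 226 and 168 FPKM in flox hearts. Of the 8 fibroblast changes 6 were above 0, and those of Pdgfra and Dpt were −0.12 and −0.03. In CKO replicate 2, Dcn, Lum and Dpt were at 0.865-, 0.821- and 0.674-fold the flox mean. The part of these shifts in the results below was not tested.

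One proteasome gene changed past the threshold: Psmb10, the inducible trypsin-like subunit, rose in CKO-labelled hearts. Of the 48 members that passed the expression filter, limma called 1 higher (6.93% of all genes tested were called higher) and 0 lower (7.19% of all genes were called lower). At an unadjusted p under 0.05 there were 3 higher (Psmb9, Psmb10 and Psmd14) and 1 lower (Psme1). Of all 12469 genes tested, 1996 were higher and 2005 lower at that p, a larger share each way than among the members. Those all-gene counts are the background for the unadjusted counts of every gene list given here. Limma's voom on the recovered counts called Psmb10 higher and Psme1 lower. The median log2 change of the 48 was 0.20, beside −0.0013 over all genes tested, and 40 of the 48 were above 0. Every CKO-labelled heart lay above every flox heart for 8 members, where 19.7% of all genes did so, and below for 2, where 19.9% did. The 8 were Psma4, Psmb6, Psmb9, Psmb10, Psmc6, Psmd11, Psmd12 and Psmg3, and the 2 were Psme1 and Psmd1. For 45 of the 48, the 95% interval of the change lay between −1 and 1 on the log2(FPKM + 1) scale. The 3 others were Psmb10, Psmd14 and Psmg4. This scale understates differences of low genes such as Psmb8, Psmb9 and Psmg3, so their intervals do not bound the fold change in FPKM.

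**Figure D1:**
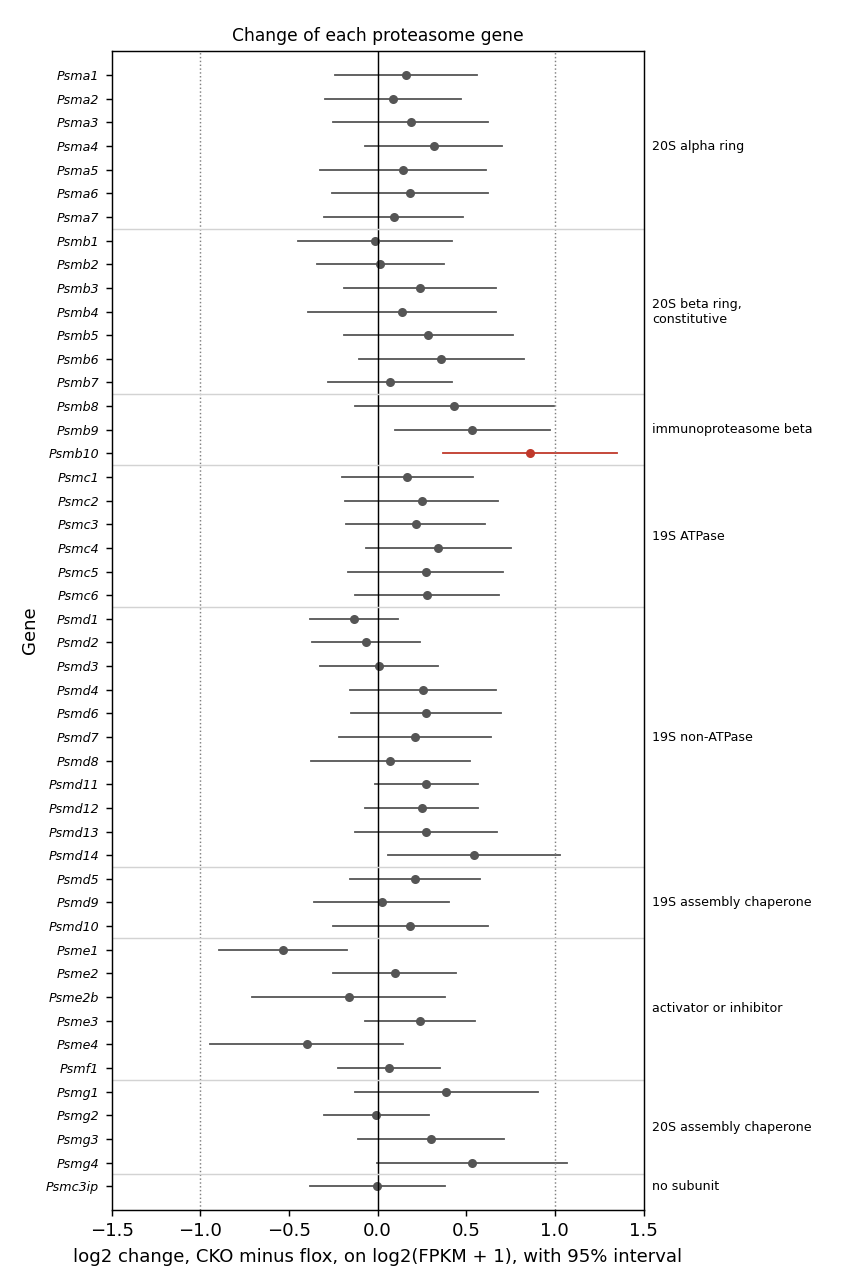
Log2 change of each of the 48 tested genes, CKO minus flox on log2(FPKM + 1) (horizontal axis), with its 95% interval from the limma fit over 12469 genes; the red point is the called gene and dotted lines mark −1 and 1 on that scale. Psmb10, at 0.86, is the only called gene, and 45 of the 48 intervals lie between the dotted lines.

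Most of the shift of the other subunits above 0 came from a single animal. CKO replicate 1 was the highest of the 6 hearts for 41 of the 48 members (85.4%) and for 30 of the 31 subunits of the 26S proteasome (96.8%), the exception being Psmd1. Its level of the 31 was at the median 1.52-fold the flox mean, and ran from 0.921-fold for Psmd1 to 1.95-fold for Psmd14. The summed level of the 31 was 1570, 1067 and 1072 FPKM in CKO replicates 1, 2 and 3, against 1036, 1072 and 1077 FPKM in flox replicates 1, 2 and 3. Replicate 1 thus stood apart from 5 hearts that lay close together. The median difference from the flox mean over the 31 subunits was 0.59 in CKO replicate 1, −0.0045 in replicate 2 and 0.01 in replicate 3 on the log2 scale. Replicate 2 lay above the flox range for 8 of the 31, below it for 7 and within it for 16. Replicate 3 lay above it for 12, below it for 10 and within it for 9. Without CKO replicate 1, the median change of the 31 subunits was 0.02 in place of 0.21, with 17 of 31 above 0 in place of 28, and no member was called.

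The flox hearts held these genes at closely matched levels. The SD of log2(FPKM + 1) over the 3 hearts of a group had a median of 0.315 over the 31 subunits in CKO-labelled hearts and 0.0616 in flox hearts. Over all genes tested the same medians were 0.206 and 0.139. The 26S genes thus varied more than the median gene tested among CKO-labelled hearts and less than it among flox hearts. The sets were not matched for level: the 31 had means of 11.9 to 94.3 FPKM, and the genes tested began at 1 FPKM. The spread among CKO-labelled hearts includes replicate 1, the heart that stood apart. The difference in spread was not tested.

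**Figure D2:**
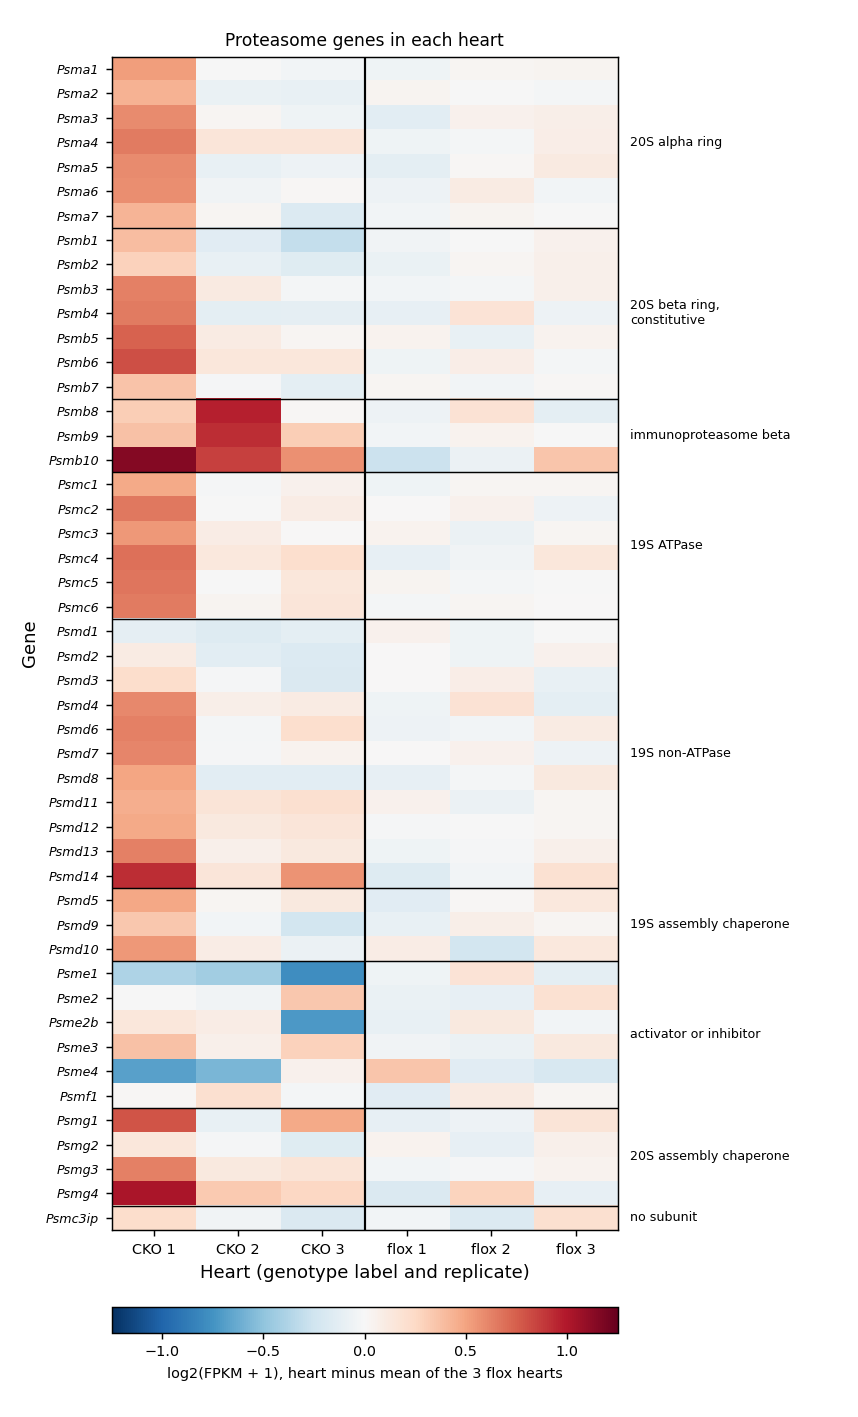
Level of each of the 48 tested genes (rows, grouped by role) in each heart (columns, CKO left of flox), as log2(FPKM + 1) minus the mean of the 3 flox hearts, with red above and blue below that mean. The column of CKO replicate 1 is red for nearly all 26S subunits, with a median of 0.59, while the immunoproteasome rows are strongest in other hearts too and Psme1 is blue in all 3 CKO-labelled hearts.

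In the core, none of the 7 alpha-ring genes, which form the gate of the barrel, and none of the 7 constitutive beta-ring genes was called by limma or by voom, and 0 of the 14 had an unadjusted p under 0.05. Alpha-ring changes ran from 0.08 (Psma2) to 0.32 (Psma4), with a median of 0.16. Psma4 had 50.2, 35.1 and 35.3 FPKM in CKO-labelled hearts and 30.4, 31.0 and 33.5 FPKM in flox hearts (limma adjusted p = 0.232). Its groups did not overlap, but CKO replicates 2 and 3 lay only just above the flox range. Psma6, with the highest mean of the ring, had 112, 72.4 and 75.2 FPKM in CKO-labelled hearts and 71.2, 80.0 and 72.7 FPKM in flox hearts. Only replicate 1 differed from the flox hearts.

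Constitutive beta-ring changes ran from −0.02 (Psmb1) to 0.36 (Psmb6), with a median of 0.14. Psmb5, the chymotrypsin-like subunit and the most highly expressed member per length, had 140, 89.8 and 84.8 FPKM in CKO-labelled hearts and 86.5, 78.6 and 86.0 FPKM in flox hearts (log2 change 0.29, limma adjusted p = 0.370). Psmb6, the caspase-like subunit, had 82.6, 51.7 and 51.7 FPKM in CKO-labelled hearts and 45.1, 49.7 and 46.0 FPKM in flox hearts (0.36, limma adjusted p = 0.253). The 3 CKO-labelled hearts lay above all flox hearts for Psmb6, replicates 2 and 3 by a small margin. Psmb7, the trypsin-like subunit, had 28.7, 22.0 and 20.4 FPKM in CKO-labelled hearts and 22.7, 21.7 and 22.4 FPKM in flox hearts (0.07, limma adjusted p = 0.770). Of Psmb1 to Psmb4, which bear no active site, the changes were −0.02, 0.02, 0.24 and 0.14. The 2 genes shown above with the antioxidant core, Psmb5 and Psmb6, had the largest changes of the ring, and neither was called. Without CKO replicate 1 their changes were 0.06 and 0.14. The other members with that core, Psmc6, Psmd9, Psmd12 and Psme4, had changes of 0.28, 0.02, 0.25 and −0.40. A link between the core and the size of change was not tested.

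The immunoproteasome subunits were all on the higher side, with changes of 0.43, 0.53 and 0.86 for Psmb8, Psmb9 and Psmb10, and 1 of the 3 was called. Psmb10 (chromosome 8, 105935735 to 105938444, minus strand, GRCm38) had 55.6, 45.3 and 37.1 FPKM in CKO-labelled hearts and 20.2, 23.2 and 31.6 FPKM in flox hearts. All 3 CKO-labelled hearts lay above all 3 flox hearts, with the closest pair at 37.1 and 31.6 FPKM. It averaged 46.0 ± 9.27 FPKM in CKO-labelled hearts and 25.0 ± 5.92 FPKM in flox hearts (SD, n = 3 each), a log2 change of 0.86 ± 0.21 (SE, 95% interval 0.37 to 1.35, limma adjusted p = 0.0365, range over the alternatives 0.0168 to 0.140). The call depended on single hearts. The limma adjusted p was 0.0739, 0.0673 and 0.0524 without CKO replicates 1, 2 and 3, and 0.140 and 0.122 without flox replicates 1 and 2. Without flox replicate 3 it was 0.0269. The change without CKO replicate 1, the heart that stood apart, was 0.72.

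Psmb8 and Psmb9 were low in all hearts and highest in another animal, CKO replicate 2. Psmb8, the inducible chymotrypsin-like subunit (chromosome 17, 34197721 to 34201454, plus strand), had 3.23, 5.69 and 2.45 FPKM in CKO-labelled hearts and 2.27, 2.86 and 2.14 FPKM in flox hearts (log2 change 0.43 ± 0.24, limma adjusted p = 0.254). Its groups overlapped. Psmb9, which takes the place of Psmb6, had 1.80, 3.13 and 1.69 FPKM in CKO-labelled hearts and 1.11, 1.24 and 1.16 FPKM in flox hearts (0.53 ± 0.19, limma adjusted p = 0.0978). Its groups did not overlap. Without CKO replicate 2 the changes of Psmb8 and Psmb9 were 0.16 and 0.34. Psmb9 overlaps Tap1 on the opposite strand, Tap1 had the higher mean (5.02 against 1.69 FPKM over the 6 hearts), and the sources used here do not say whether counting used strand, so reads of the pair may not have been told apart. Among the other members, Psma2, Psma3, Psmb7, Psmc3, Psmd13, Psme1 and Psmc3ip also overlap a gene with a mean of at least 1 FPKM. Psmb10 overlaps none and was the highest of the 3 per length in every heart.

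Each inducible subunit was also set against the constitutive one whose place it takes, within each heart. The percentages below are of FPKM, and the tested ratio is a log2 ratio of FPKM + 1, which holds back the ratios of the low genes Psmb8 and Psmb9. The percentages rest on the gene lengths used, such as 1705 bases for Psmb10 and 3421 for Psmb7. Recovered counts in CKO replicates 1, 2 and 3 were 1585, 1270 and 1001 for Psmb10 and 1643, 1236 and 1106 for Psmb7. The Psmb10 level was 194%, 206% and 182% of the Psmb7 level in CKO-labelled hearts and 88.7%, 107% and 141% in flox hearts. The groups did not overlap, and the ratio was higher by 0.79 on the log2 scale in CKO-labelled hearts (two-sided exact permutation p = 0.1, the smallest that 3 against 3 hearts allows, adjusted over the 3 ratios 0.3), and by 0.81 with no pseudocount. Psmb8 stood at 2.31%, 6.34% and 2.89% of Psmb5 in CKO-labelled hearts and at 2.63%, 3.64% and 2.49% in flox hearts, a difference of 0.15 (exact permutation p = 0.8, adjusted 0.8), or 0.28 with no pseudocount. Psmb9 stood at 2.18%, 6.05% and 3.27% of Psmb6 in CKO-labelled hearts and at 2.47%, 2.49% and 2.52% in flox hearts, a difference of 0.17 (exact permutation p = 0.7, adjusted 0.8), or 0.49 with no pseudocount. The last 2 ratios had only CKO replicate 2 well above the rest. CKO replicate 1 had Psmb5 and Psmb6, the lower terms of these ratios, at 1.67- and 1.76-fold the flox mean. Without CKO replicate 1 the differences on FPKM + 1 were 0.43 for Psmb8 and 0.48 for Psmb9. Without CKO replicate 2 they were −0.21 for Psmb8 and −0.13 for Psmb9. In a setting added after the data were seen, without that heart and with no pseudocount, they were −0.16 and 0.10, so the direction for Psmb9 depends on the pseudocount.

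**Figure D3:**
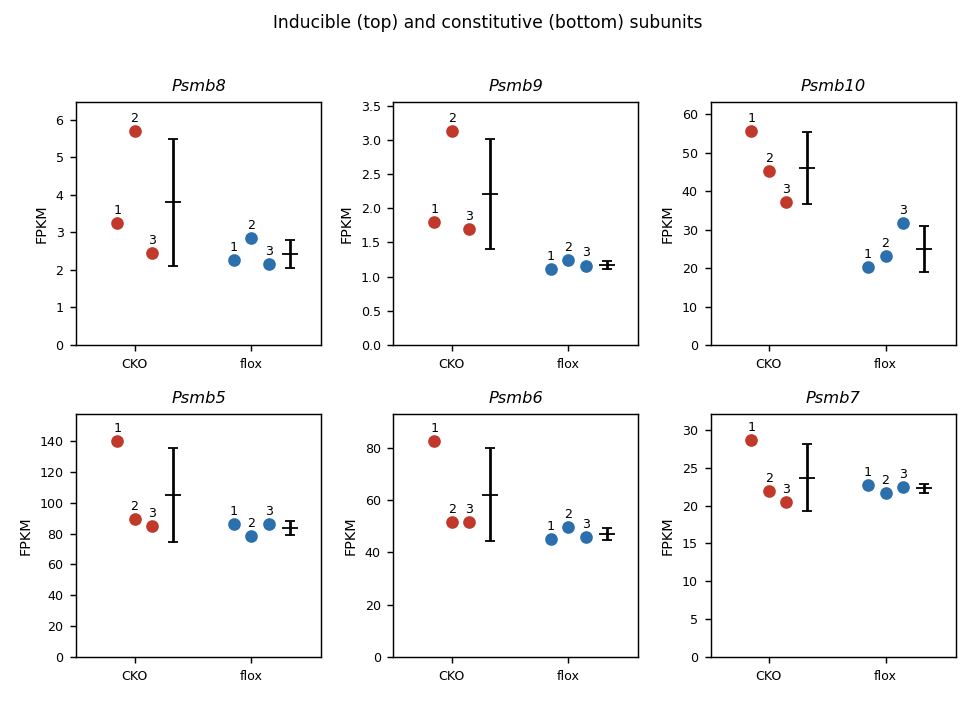
FPKM of the inducible catalytic subunits (top row) above the constitutive subunits whose places they take (bottom row) in each heart, CKO left of flox, with replicate numbers beside the points and bars for mean ± SD over 3 hearts. Psmb10 lies at 37.1 to 55.6 FPKM in CKO-labelled hearts, above all flox hearts, while for Psmb5, Psmb6 and Psmb7 only CKO replicate 1 stands far from the others.

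In the 19S particle, limma and voom called 0 of 17 genes, and 1 (Psmd14) had an unadjusted p under 0.05. The 6 ATPases, which form the ring that unfolds substrates, moved in a narrow range from 0.17 (Psmc1) to 0.34 (Psmc4), with a median of 0.26. All 6 were highest in CKO replicate 1, at 1.39- to 1.62-fold the flox mean. Psmc6 had 35.5, 22.9 and 24.9 FPKM in CKO-labelled hearts and 21.9, 22.6 and 22.3 FPKM in flox hearts (0.28, limma adjusted p = 0.304). Its groups did not overlap, and the flox hearts spanned less than 1 FPKM.

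The 11 non-ATPase subunits ran from −0.13 (Psmd1) to 0.54 (Psmd14), with a median of 0.25. Psmd14, the metalloprotease that cuts ubiquitin chains from substrates, had 27.0, 15.4 and 20.8 FPKM in CKO-labelled hearts and 12.2, 13.4 and 15.9 FPKM in flox hearts (0.54 ± 0.21, limma adjusted p = 0.121). CKO replicate 2 fell inside the flox range, and without it the change was 0.74 (limma adjusted p = 0.0413). Without CKO replicate 1 it was 0.35 (limma adjusted p = 0.224). Psmd11, a lid subunit, had 14.9, 12.0 and 12.4 FPKM in CKO-labelled hearts and 11.03, 10.04 and 10.8 FPKM in flox hearts (0.27, limma adjusted p = 0.178). Psmd12, also of the lid, had 39.2, 30.4 and 31.0 FPKM in CKO-labelled hearts and 27.6, 27.7 and 28.3 FPKM in flox hearts (0.25, limma adjusted p = 0.249). For both, the groups did not overlap.

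The large scaffold subunits Psmd1 and Psmd2 and the lid subunit Psmd3 were at most 1.17-fold the flox mean in CKO replicate 1. Psmd1 had 13.8, 13.2 and 13.6 FPKM in CKO-labelled hearts and 15.6, 14.4 and 14.9 FPKM in flox hearts (−0.13, limma adjusted p = 0.424), below all flox hearts by a small margin. Psmd2 had 57.9, 49.0 and 47.5 FPKM in CKO-labelled hearts and 53.7, 51.7 and 55.8 FPKM in flox hearts (−0.07, limma adjusted p = 0.754). Psmd3 had 36.0, 30.4 and 26.9 FPKM in CKO-labelled hearts and 30.9, 32.7 and 28.7 FPKM in flox hearts (0.01, limma adjusted p = 0.979). For Psmd2 and Psmd3 the groups overlapped. The remaining non-ATPase genes, the ubiquitin receptor Psmd4 and the lid subunits Psmd6, Psmd7, Psmd8 and Psmd13, had changes of 0.26, 0.27, 0.21, 0.07 and 0.27.

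Assembly chaperones gave no call by limma or voom, and none of the 7 had an unadjusted p under 0.05. Those of the 19S base, Psmd5, Psmd9 and Psmd10, had changes of 0.21, 0.02 and 0.18. Of the 20S chaperones, Psmg4 had 27.3, 16.4 and 15.7 FPKM in CKO-labelled hearts and 11.3, 16.0 and 12.0 FPKM in flox hearts (0.53 ± 0.23, limma adjusted p = 0.159). Psmg1 had 20.2, 10.5 and 16.1 FPKM in CKO-labelled hearts and 10.5, 10.8 and 12.8 FPKM in flox hearts (0.39, limma adjusted p = 0.268; 0.63 and 0.0493 without CKO replicate 2, 0.19 and 0.556 without CKO replicate 1). Both were highest in CKO replicate 1 and overlapped between groups. Psmg3, the partner of Psmg4, had 1.98, 1.09 and 1.16 FPKM in CKO-labelled hearts and 0.889, 0.908 and 0.993 FPKM in flox hearts (0.30), so it passed the filter only through the CKO-labelled hearts. Psmg2, the partner of Psmg1 in its chaperone complex, had a change of −0.01.

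Of the 6 activator and inhibitor genes, limma called 0 and voom 1, Psme1, which was also the only one with an unadjusted p under 0.05. The median change of the 6 was −0.05. Psme1 encodes the alpha subunit of the 11S (PA28) activator, which opens the core gate and is known with the immunoproteasome (chromosome 14, 55578123 to 55581529, plus strand). It had 29.4, 28.4 and 22.1 FPKM in CKO-labelled hearts and 37.3, 43.6 and 35.6 FPKM in flox hearts. The groups did not overlap, and CKO replicate 1 was not the extreme heart. The log2 change was −0.53 ± 0.15 (95% interval −0.89 to −0.17), just short of the threshold (limma adjusted p = 0.0601, range over the alternatives 0.0181 to 0.196). It was called lower with a minimum mean of 5 FPKM, quantile normalization, array weights or voom. Psme1 overlaps Emc9 (6.35 FPKM over the 6 hearts) on the opposite strand.

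Psme2, the beta subunit of the same activator, had 8.78, 8.52 and 11.4 FPKM in CKO-labelled hearts and 8.23, 8.16 and 10.1 FPKM in flox hearts (0.10, limma adjusted p = 0.690). Psme2b, a near-copy of Psme2 whose length of 837 bases equals its span on chromosome 11, had 24.8, 23.8 and 13.2 FPKM in CKO-labelled hearts and 20.9, 24.4 and 21.9 FPKM in flox hearts (−0.16, limma adjusted p = 0.669). The authors' counting may have split reads between the pair, so both levels are uncertain. Psme4, the PA200 activator, had 13.0, 14.1 and 22.3 FPKM in CKO-labelled hearts and 27.5, 19.3 and 18.5 FPKM in flox hearts (−0.40 ± 0.23, limma adjusted p = 0.278). CKO replicate 3 lay inside the flox range. The nuclear activator Psme3 and the inhibitor Psmf1 had changes of 0.24 and 0.06.

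The tissue-restricted core subunits were not measured well enough to compare. Psma8, a testis subunit, had 0.106 to 0.310 FPKM and 3 to 8 recovered counts per heart. Psmb11, known from thymic epithelium, had 0 counts in all 6 hearts, which allows up to 3 counts per library. Psmc3ip, the gene that is no subunit, had a change of −0.00018.

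Genes that act beside the proteasome were read from lists. Of 8 tested genes for associated and assembly factors, limma and voom called 0, none had an unadjusted p under 0.05, 7 were highest in CKO replicate 1, and the median change was 0.23. Akirin2, known from human cells as the factor that imports proteasomes into the nucleus and has the highest mean of the list, had 32.5, 24.9 and 26.8 FPKM in CKO-labelled hearts and 23.7, 29.7 and 21.0 FPKM in flox hearts (0.18, limma adjusted p = 0.504). Of 13 genes for unfoldases, shuttle receptors and ubiquitin, limma and voom called 0, with 2 higher and 2 lower at an unadjusted p under 0.05. Ubb, a polyubiquitin gene, had 270, 233 and 178 FPKM in CKO-labelled hearts and 194, 205 and 194 FPKM in flox hearts (0.18, limma adjusted p = 0.520). Rps27a, which encodes ubiquitin fused to a ribosomal protein and was chosen after its values were seen, had 235, 49.7 and 52.2 FPKM in CKO-labelled hearts and 23.7, 32.8 and 37.5 FPKM in flox hearts (1.44 ± 0.56, limma adjusted p = 0.127). CKO replicate 1 was its highest heart too, and the groups did not overlap.

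Among 10 regulators of proteasome genes, limma called 0 and voom 1, and at an unadjusted p under 0.05 there were 3 higher and 1 lower. The lower one was Nfe2l1, the gene of NRF1, with 58.8, 71.8 and 69.1 FPKM in CKO-labelled hearts and 115, 94.9 and 85.9 FPKM in flox hearts. It was lowest in CKO replicate 1, the heart with the highest subunit levels, and the groups did not overlap. Its change of −0.55 ± 0.16 fell short of the threshold (limma adjusted p = 0.0569, range over the alternatives 0.0278 to 0.219), and voom called it (0.0494), as did array weights. NRF1 is activated as a protein, which messenger RNA does not show. Ddi2, the protease that activates NRF1, was named after its values were seen: it had 5.00, 7.59 and 7.68 FPKM in CKO-labelled hearts and 9.91, 8.30 and 7.87 FPKM in flox hearts (−0.34, limma adjusted p = 0.229). The 3 on the higher side, also named after their values were seen, were Maff, Mafg and Mafk, which encode small MAF proteins, the partners of NRF1 and NRF2 on DNA. Maff had 13.5, 5.14 and 7.87 FPKM in CKO-labelled hearts and 5.07, 2.71 and 3.35 FPKM in flox hearts (1.004 ± 0.319, limma adjusted p = 0.0767, range over the alternatives 0.0316 to 0.211). Its groups did not overlap, but CKO replicate 2 and flox replicate 1 lay close together. The changes of Mafg and Mafk were 0.37 and 0.57 (limma adjusted p = 0.135 and 0.131).

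Of 7 tested targets of the related factor NRF2, which also acts on antioxidant response elements, 1 was called higher and 0 lower. The shares of all genes tested were 6.93% and 7.19%. Hmox1, heme oxygenase 1, had 18.6, 12.1 and 9.85 FPKM in CKO-labelled hearts and 5.35, 6.42 and 7.08 FPKM in flox hearts, with no overlap. Its change was 0.96 ± 0.22 (limma adjusted p = 0.0310, range over the alternatives 0.0135 to 0.119; 0.119 and 0.0950 without flox replicates 1 and 2). The gene of NRF2 itself, Nfe2l2, had a change of −0.0058 (limma adjusted p = 0.985). Slc7a11, the eighth target listed, had no more than 0.0318 FPKM.

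Antigen presentation genes, which act on the peptides the immunoproteasome makes, had 1 call higher and 0 lower among 10 tested. Of all genes tested, 6.93% were called higher and 7.19% lower. Tap1, a subunit of the peptide transporter and the neighbour of Psmb9, had 6.02, 10.1 and 5.80 FPKM in CKO-labelled hearts and 2.81, 2.72 and 2.62 FPKM in flox hearts. All 3 CKO-labelled hearts were above all flox hearts, replicate 2 most. The change was 1.12 ± 0.20 (limma adjusted p = 0.0138, range over the alternatives 0.00631 to 0.0555). It missed the threshold without flox replicate 1 (0.0555), without flox replicate 2 (0.0553) and without an expression filter (0.0533).

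The MHC class I genes were named after their values were seen. B2m, the light chain, had 157, 555 and 162 FPKM in CKO-labelled hearts and 83.9, 81.4 and 108 FPKM in flox hearts (1.41 ± 0.46, limma adjusted p = 0.0825). H2-K1, a heavy chain, had 39.8, 251 and 43.1 FPKM in CKO-labelled hearts and 25.9, 27.9 and 20.3 FPKM in flox hearts (1.59 ± 0.64, limma adjusted p = 0.137). H2-D1 had 51.5, 217 and 55.1 FPKM in CKO-labelled hearts and 44.7, 43.9 and 42.7 FPKM in flox hearts (0.95 ± 0.50, limma adjusted p = 0.237). All 3 were by far highest in CKO replicate 2, as Psmb8, Psmb9 and Tap1 were. Without that heart the changes of B2m and H2-K1 were 0.81 and 0.73, with limma adjusted p of 0.0341 and 0.0409, and that of H2-D1 was 0.28. MHC class I genes share long stretches of sequence, so reads may be split between them.

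**Figure D4:**
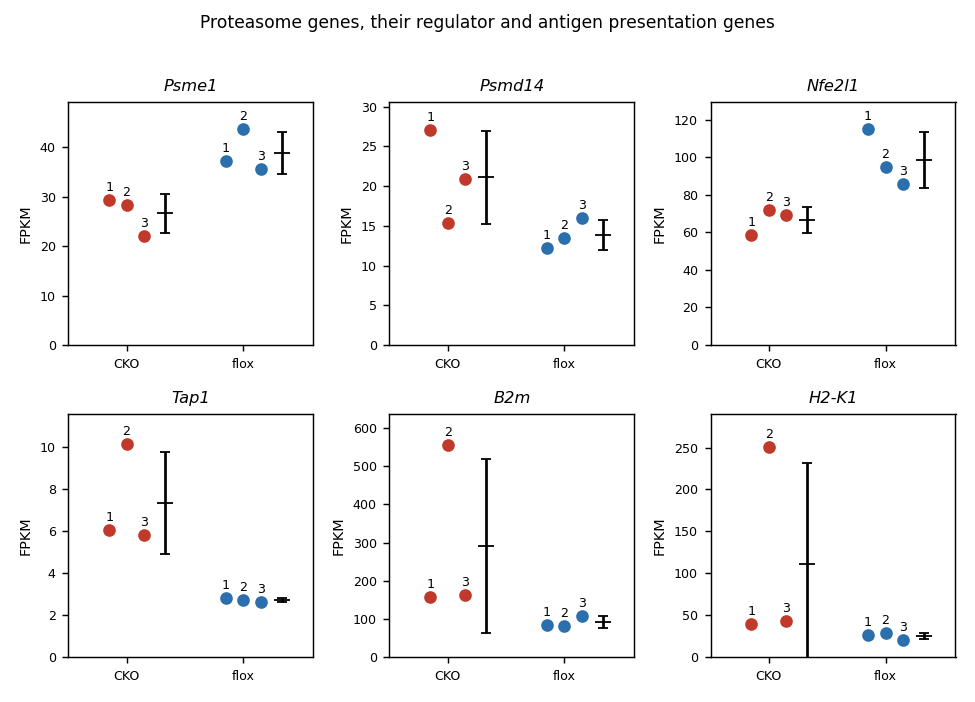
FPKM of Psme1, Psmd14, Nfe2l1, Tap1, B2m and H2-K1 in each heart, CKO left of flox, with replicate numbers beside the points and bars for mean ± SD over 3 hearts (the lower end of the H2-K1 bar is below the axis). Psme1 and Nfe2l1 are lower in all 3 CKO-labelled hearts than in any flox heart, and B2m and H2-K1 reach 555 and 251 FPKM in CKO replicate 2.

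Immune cells, which carry the immunoproteasome, and interferon genes were read beside these values. Of 10 interferon response genes, limma and voom called 0, with 2 higher and 0 lower at an unadjusted p under 0.05. Ifi35, the one with the highest mean, had 6.82, 6.66 and 5.85 FPKM in CKO-labelled hearts and 4.84, 6.47 and 4.96 FPKM in flox hearts (0.22, limma adjusted p = 0.301). Of 7 tested macrophage and monocyte markers, 1 was called higher, Cd68 (0.65, limma adjusted p = 0.0346, range over the alternatives 0.0131 to 0.133). The share called higher over all genes tested was 6.93%. The 8 markers on that list summed to 133, 109 and 77.8 FPKM in CKO replicates 1, 2 and 3 and to 53.2 to 70.3 FPKM in flox hearts. Lyz2 made up most of each sum, with 94.7, 71.4 and 46.4 FPKM in CKO-labelled hearts and 38.8, 30.0 and 37.8 FPKM in flox hearts. Adgre1, Csf1r and Ptprc were highest in CKO replicate 2, Cd68, Cd14, Fcgr1 and Lyz2 in CKO replicate 1, and Mrc1 in CKO replicate 3. The 8 T and natural killer cell markers were all under 1 FPKM on average and summed to 1.79, 3.33 and 1.32 FPKM in CKO replicates 1, 2 and 3 and to 1.21 to 1.26 FPKM in flox hearts. Their sum was highest in CKO replicate 2, as Psmb8 and Psmb9 were, but Cd3e and Nkg7 were highest in CKO replicate 1. Klrd1 was at 0 in CKO replicate 3 and in all 3 flox hearts. The 4 B cell markers summed to 2.06 to 3.74 FPKM in CKO-labelled hearts and to 1.57 to 2.94 FPKM in flox hearts. The part of these cells in the immunoproteasome values was not tested.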

How the data were processed

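The authors deposited FPKM per gene and heart. Per the series text and the submitters' processing notes, paired reads of 150 bases were aligned with HISAT2 2.0.5 to GRCm38 (mm10) and counted with featureCounts 1.5.0-p3, and the notes also list CASAVA and DESeq2 1.20.0; none of these states whether strand was used. FPKM multiplied by gene length gave whole counts for 100% of values within 0.01, and these showed that the deposited values carry median-ratio scaling (size factors 0.893 to 1.07). Intervals cover the spread between hearts.

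Log2(FPKM + 1), which understates changes of low genes, was fitted with limma 3.58.1 (R 4.3.3; genotype only, mean-variance trend, two-sided) for genes with a mean of at least 1 FPKM. Ratios used exact permutation tests (scipy 1.17.1). On simulated data over 12469 genes, limma called 34 of 100 genes given a 2-fold change, 99 of 100 given a 4-fold change and 12 of 12269 left alone, with 0 wrong directions. The simulated spread was set to the same value for all genes and was not taken from these hearts. The shares called therefore do not give the power of the real comparison. No libraries were identical.

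All members are accounted for by role. Values per heart are given for called members, for Psmb5 to Psmb10 and, chosen after their values were seen, for others whose groups did not overlap or that stood out in their role. Each partner list gives up to 3 called genes or its most expressed one. Members and lists were chosen with earlier results of these data known. Alternatives tried were other pseudocounts, filters, scalings and moderation, array weights, voom, the replicate block and each heart left out.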

Additional observations from a re-analysis of the deposited data

How the results depend on the processing

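No member was called higher without a filter or with the replicate number as a block, 0 in place of 1. With a minimum mean of 5 FPKM, quantile normalization, array weights or voom, 1 was called lower (Psme1) in place of 0. Called genes in all numbered 641 without a filter, 2784 with array weights and 541 with the replicate block, against 1761. Leaving out 1 heart gave 364 to 1794 called genes, 0 to 2 members higher and 0 lower. Same-numbered hearts did not deviate together (correlations −0.283, −0.137 and −0.192). With so few hearts this cannot show whether the numbers pair hearts, and the sources used here do not state a pairing. The block gave Psmb10 a limma adjusted p of 0.114 and Hmox1 0.0938, and the fit without a filter gave them 0.0948 and 0.0915. Tap1 had 0.0456 with the block and 0.0533 without a filter.

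The median of all genes was 0.13 with TPM and 0.11 with total-count scaling, and that of members exceeded it by 0.22 and 0.21, against 0.20 with the deposited scaling; 69.0% and 66.4% of calls were higher, against 49.1%. With array weights the median of members was 0.09. Small changes turned sign. With TPM, Nat10 was at 0.065, Psmb1 0.12, Psmd1 0.00023, Psmd2 0.073, Psmg2 0.13 and Psmc3ip 0.11. With total-count scaling, Nat10 was at 0.054, Psmb1 0.12, Psmd2 0.070, Psmg2 0.13 and Psmc3ip 0.088. With quantile normalization, Psmb2 was at −0.051 and Psmd3 −0.033. With array weights, Nat10 was at 0.00085, Psma2 −0.049, Psma7 −0.043, Psmb2 −0.071, Psmb4 −0.059, Psmb7 −0.036, Psmd3 −0.10, Psmd8 −0.050 and Psmd9 −0.092. Leaving out 1 heart gave ranges across 0 for Nat10 (−0.10 to 0.013), Psma1 (−0.021 to 0.26), Psma2 (−0.090 to 0.17), Psma3 (−0.016 to 0.31), Psma5 (−0.078 to 0.26), Psma6 (−0.014 to 0.30), Psma7 (−0.077 to 0.22), Psmb1 (−0.22 to 0.13), Psmb2 (−0.12 to 0.10), Psmb4 (−0.12 to 0.27), Psmb7 (−0.069 to 0.17), Psmd3 (−0.10 to 0.10), Psmd8 (−0.13 to 0.18), Psmd9 (−0.13 to 0.15), Psmf1 (−0.0063 to 0.12), Psme2 (−0.023 to 0.19), Psme2b (−0.31 to 0.12), Psmg2 (−0.082 to 0.066), Psmc3ip (−0.11 to 0.10) and the ratios of Psmb8 to Psmb5 (−0.21 to 0.43) and Psmb9 to Psmb6 (−0.13 to 0.48). The ratio of Psmb8 to Psmb5 was −0.16 without CKO replicate 2 and with no pseudocount, a setting added after the data were seen. The regulator Nfe2l2 was at 0.13 with TPM and 0.13 with total-count scaling, and at −0.13 to 0.15 with 1 heart left out. None of these genes was called in any of those fits. The causes were not tested. With 3 hearts a group, 2-fold changes were often missed in simulated data, whose spread was not taken from these hearts.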
